A study of Mus musculus with 8 samples.

Results

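The 9 genes described here encode the Fc gamma receptors of the mouse and the proteins that carry their signal: *Fcgr1*, *Fcgr3* and *Fcgr4* (activating receptors), *Fcgr2b* (the inhibitory receptor), *Fcer1g* and *Tyrobp* (adaptors), *Syk* (a kinase), and *Vav1* and *Plcg2* (effectors). They were found by matching Ensembl identifiers to gene symbols, and they are 9 of the 44674 genes in the table. The list was chosen by values of this same comparison, since the immune genes were already known to be higher in part of the Ox1RΔSERT mice, so the difference between genotypes is given below as a description and supports nothing. All 9 passed the filter on low counts, as did 14489 genes in all.

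Fc gamma receptors bind the constant part of immunoglobulin G and so tie antibodies to the cells of the innate immune system, mainly macrophages, monocytes and neutrophils. When antibody clusters the activating receptors, Src-family kinases phosphorylate tyrosine motifs in the adaptor Fcer1g, Syk docks there, and Vav1 and Plcg2 pass the signal on to the actin skeleton, to calcium and to the NADPH oxidase. Fcgr2b carries an inhibitory motif that recruits phosphatases and damps the same cascade. In adipose tissue these genes are known mostly from macrophages.

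RNA was sequenced from brown adipose tissue (BAT) of 8 male mice, 4 controls and 4 Ox1RΔSERT mice, each library being 1 mouse. Ox1RΔSERT mice carried Ox1R fl/fl alleles, in which loxP sites flank part of the orexin receptor 1 gene *Hcrtr1*, together with a Sert-Cre transgene (Sert-Cre tg/wt), which removes the receptor from serotonergic neurons. Controls were littermates with the same floxed alleles and no Cre (Ox1R fl/fl, Sert-Cre wt/wt), so an effect of Cre alone cannot be told apart from that of the lost receptor, and Cre activity of this line outside the raphe is known in cingulate cortex and thalamus. All mice ate a high-fat diet from 4 to 18 weeks of age, and BAT was taken at the end of a hyperinsulinemic-euglycemic clamp, in which insulin is infused and glucose is held constant. The libraries held 35852708 to 50063339 estimated counts, with a median of 43814287 in control and 42559742 in Ox1RΔSERT mice.

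Values of 3 genes were read beside the labels. *Ucp1* bears on the tissue, and none of the 3 tests the genotype labels. *Hcrtr1* itself had 0, 5, 3 and 2 counts in control mice 1 to 4 and 4, 0, 5 and 3 counts in Ox1RΔSERT mice 1 to 4. These values lie near the floor of 3 counts, which corresponds to 0.0592 to 0.0951 normalized CPM (counts scaled to a common library size) in the different libraries, and since Cre acts in neurons they do not test the deletion. *Ucp1*, the uncoupling protein that defines brown adipocytes, was at 3730, 3810, 4630 and 4890 normalized CPM in control mice and at 2510, 3820, 2900 and 2510 in Ox1RΔSERT mice, so this marker was abundant in every library. *Slc6a4*, the gene of the serotonin transporter that names the Cre line, had 10, 10, 19 and 12 counts in control mice and 6, 6, 21 and 16 in Ox1RΔSERT mice.

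Ox1RΔSERT mice 1 and 4 stood apart from the other 6 libraries. The first principal component, with 52.2% of the variance, gave scores of 80.5 and 61.6 for them, while the scores of the remaining 6 ranged from -47.5 to 8.62. Fold changes of the members and medians of the lists with 2 or more tested genes are therefore given with and without both mice. So are fold changes of the tested genes described by mouse, other than *Slc6a4*. The median over all pathway genes together and that of neighbours on chromosome 1 are given with all mice only. All 9 members had their 2 highest values in exactly these 2 mice, which was the case for 2918 of all 14489 genes tested (20.1%). The share of counts from the mitochondrial genome was 36.2% and 33.6% in these mice and 34% in Ox1RΔSERT mouse 3, against 44.6% in Ox1RΔSERT mouse 2 and 39.99%, 46.8%, 42.1% and 42.7% in control mice 1 to 4, and its part in the results was not tested.

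Among the activating receptors, *Fcgr1* (ENSMUSG00000015947), the high-affinity receptor for monomeric antibody, is found on chromosome 3 (GRCm38, positions 96282909 to 96293969). Normalized CPM of this gene was 1.96, 0.951, 2.04 and 0.948 in control mice 1 to 4 and 17.7, 2.12, 2.69 and 13.1 in Ox1RΔSERT mice 1 to 4. The groups did not overlap, yet the gap between the lowest Ox1RΔSERT mouse and the highest control mouse was small beside the distance to mice 1 and 4. The log2 fold change was 2.59 (standard error 0.71), the largest of the 9 members in the main fit. It was 0.70 without Ox1RΔSERT mice 1 and 4, where *Vav1* (1.12) and *Fcgr4* (0.86) were larger. On log2(TPM + 1) *Fcgr1* had 1.47, below *Tyrobp* (1.61), *Fcer1g* (1.59) and *Fcgr3* (1.55). As the tissue was sequenced in bulk, more cells that express these genes and more RNA per cell cannot be told apart, here or for any gene below.

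*Fcgr3* (ENSMUSG00000059498), a low-affinity receptor for immune complexes that needs Fcer1g to reach the membrane, was at 13.8, 14.6, 7.69 and 7.63 normalized CPM in control mice and at 46.3, 13.1, 18.1 and 47.4 in Ox1RΔSERT mice. Ox1RΔSERT mouse 2 lay within the control range, and mouse 3 just above it. Its log2 fold change was 1.52 (standard error 0.45), and 0.52 without mice 1 and 4. *Fcgr4* (ENSMUSG00000059089), a receptor of intermediate affinity found on monocytes, macrophages and neutrophils, had 28 to 320 counts in a library. Its normalized CPM was 1.15, 1.33, 0.841 and 0.632 in control mice and 5.49, 1.46, 2.09 and 6.31 in Ox1RΔSERT mice, with no overlap between the groups. This gave a log2 fold change of 1.96 (standard error 0.50), and of 0.86 without mice 1 and 4.

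The inhibitory receptor *Fcgr2b* (ENSMUSG00000026656) had the smallest difference of the 9 members in the main fit. On log2(TPM + 0.1) only *Plcg2* was smaller, at 1.17 against 1.39. On log2(TPM + 1) *Plcg2* (0.43), *Vav1* (0.9) and *Syk* (1.07) were smaller than *Fcgr2b* (1.3), and *Fcgr4* lay just below it. Normalized CPM was 17.1, 13.6, 7.76 and 8.76 in control mice and 35.0, 12.5, 15.4 and 39.5 in Ox1RΔSERT mice. Ox1RΔSERT mice 2 and 3 both lay inside the control range, and only mice 1 and 4 lay above it. The log2 fold change was 1.12 (standard error 0.41), and 0.25 without these mice, where that of *Plcg2* was 0.20.

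*Fcgr2b* and *Fcgr3* are close relatives in sequence, which bears on how reads are divided between them. Of the 31-base words in the annotated transcripts of *Fcgr3*, 13.4% also occur in other genes, all of them in *Fcgr2b*, and 5.78% of those of *Fcgr2b* are shared, whereas the share was 1.31% for *Fcgr4*, 0.0319% for *Syk* and 0% for the other members. The longest run common to their coding sequences has 129 bases, from coding base 278 to 406 in Fcgr2b-201 and from 263 to 391 in Fcgr3-201, and is shown because a read inside it cannot be assigned to either gene by sequence alone:

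shared coding run: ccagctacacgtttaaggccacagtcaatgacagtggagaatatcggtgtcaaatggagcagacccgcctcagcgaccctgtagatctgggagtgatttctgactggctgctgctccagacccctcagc

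The division of reads between *Fcgr2b* and *Fcgr3* is thus an estimate, and their ratio is less certain than the level of either. Reads were sequenced in pairs, so the mate of a read inside the run can lie outside it. How many reads stay undecided was not measured. *Fcgr2b* also overlaps the antisense gene *Gm38204* over 155 exonic bases, but that gene was listed at a mean of 0 TPM.

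**Figure D1:**
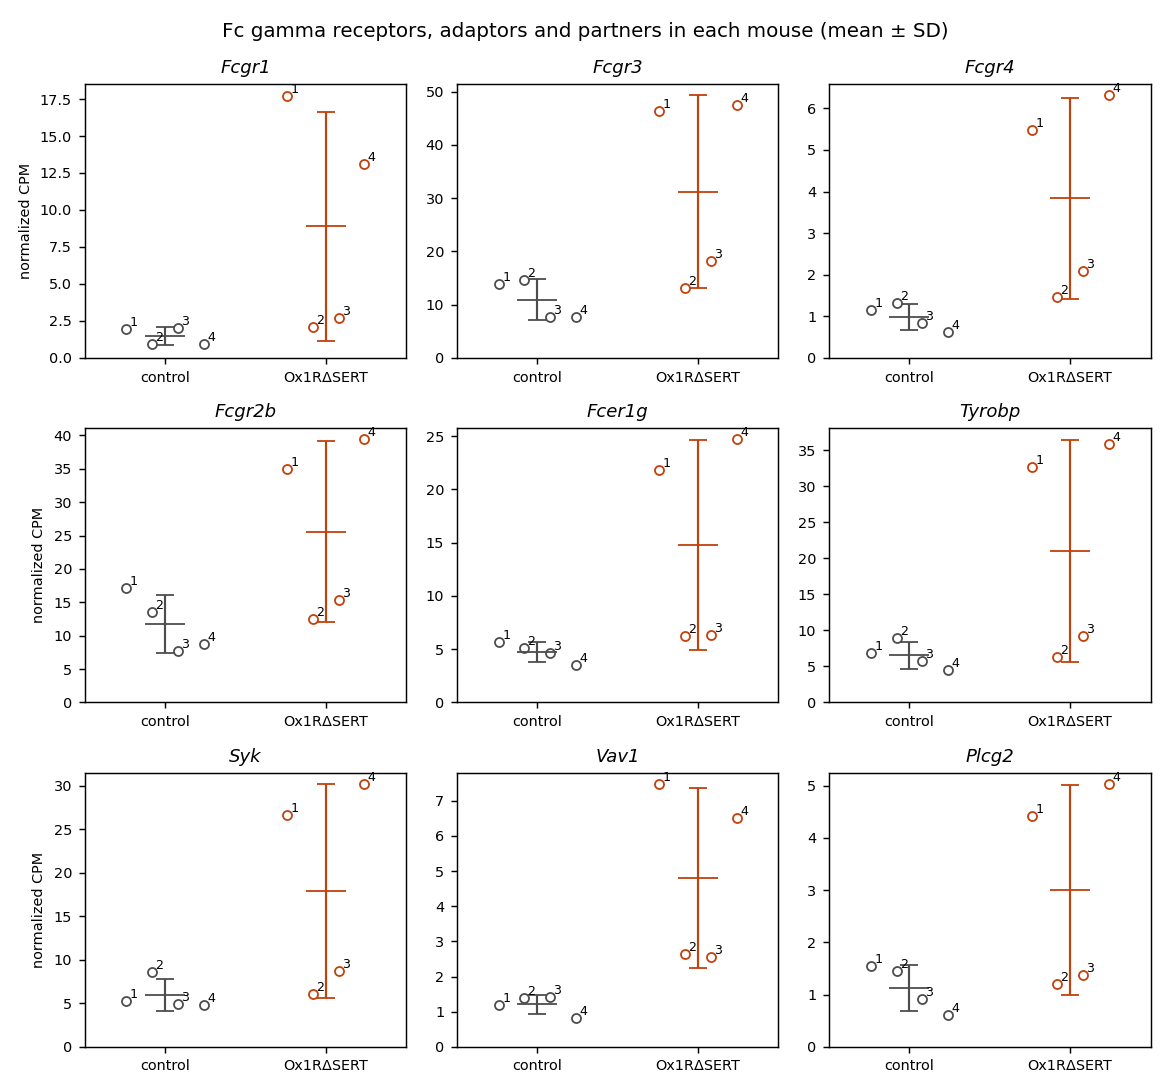
Normalized CPM of the 9 members (vertical axis, from 0) in control and Ox1RΔSERT mice; each open circle is 1 mouse with its number, and the bars are the mean ± SD of 4 mice. Ox1RΔSERT mice 1 and 4 are the 2 highest in each panel, and mice 2 and 3 lie nearer to the controls than these 2 do.

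Of the adaptors, *Fcer1g* (ENSMUSG00000058715), the common gamma chain that activating Fc receptors share, was at 5.68, 5.07, 4.67 and 3.52 normalized CPM in control mice and at 21.8, 6.20, 6.35 and 24.7 in Ox1RΔSERT mice. The groups did not overlap, by a narrow margin at mice 2 and 3. The log2 fold change was 1.64 (standard error 0.47), and 0.41 without mice 1 and 4. *Tyrobp* (ENSMUSG00000030579), also named DAP12, carries the same kind of activating motif but serves other myeloid receptors such as Trem2. It was at 6.83, 8.94, 5.74 and 4.54 in control mice and at 32.7, 6.35, 9.23 and 35.9 in Ox1RΔSERT mice, where mouse 2 fell inside the control range. *Tyrobp* had a log2 fold change of 1.69 (standard error 0.55), and of 0.27 without mice 1 and 4.

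*Syk* (ENSMUSG00000021457), the kinase that binds the phosphorylated motif of both adaptors, was at 5.23, 8.66, 4.94 and 4.83 normalized CPM in control mice and at 26.7, 6.05, 8.71 and 30.2 in Ox1RΔSERT mice. Control mouse 2 was higher than the other controls and reached nearly the value of Ox1RΔSERT mouse 3. The log2 fold change was 1.60 (standard error 0.51), and 0.33 without mice 1 and 4. *Plcg2* (ENSMUSG00000034330), the phospholipase that raises calcium in myeloid and B cells, ranged from 0.61 to 1.54 in control mice and from 1.2 to 5.03 in Ox1RΔSERT mice, with mice 2 and 3 inside the control range. Its log2 fold change was 1.41 (standard error 0.53), and 0.20 without mice 1 and 4.

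*Vav1* (ENSMUSG00000034116), the exchange factor that activates Rac in blood cells, had its value in mouse 2 farther above the controls than any other member. Its normalized CPM was 1.18, 1.4, 1.41 and 0.835 in control mice and 7.47, 2.64, 2.56 and 6.51 in Ox1RΔSERT mice. All 4 Ox1RΔSERT mice lay clear of the controls, with mice 2 and 3 at 2.19 and 2.13 times the control mean. In the other 8 members these ratios reached at most 1.48 in mouse 2 and 2.11 in mouse 3, the latter in *Fcgr4*, so in mouse 3 the 2 genes were alike. The log2 fold change of *Vav1* was 1.99 (standard error 0.40), and 1.12 without mice 1 and 4, the largest of the members in that fit. Since *Vav1* was among the genes known to differ when the list was drawn up, this is a description too.

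**Figure D2:**
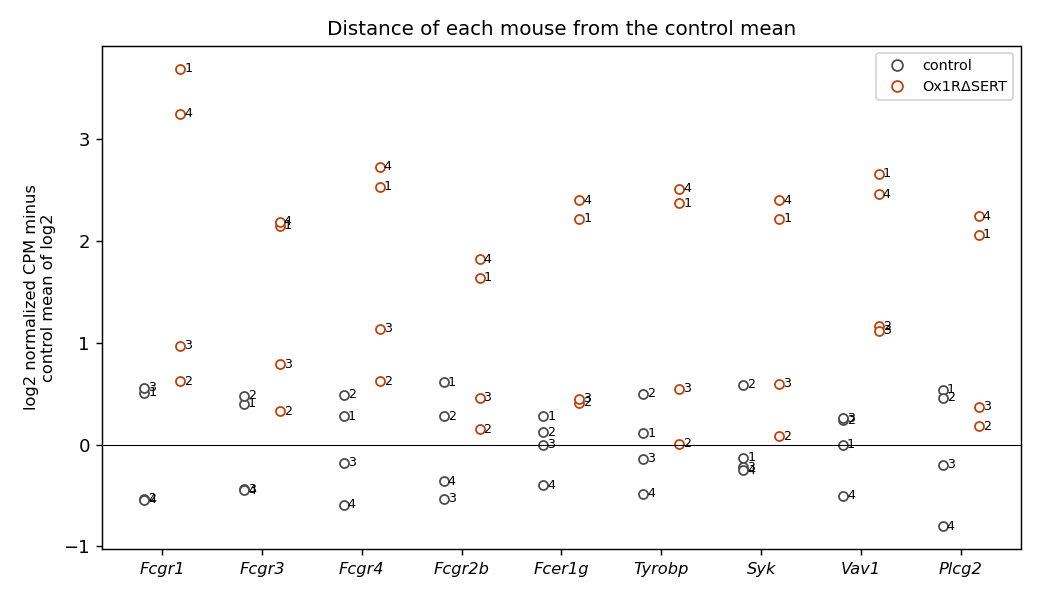
Log2 normalized CPM of each mouse minus the mean log2 value of the 4 controls (vertical axis), for the 9 members; each circle is 1 mouse with its number. *Vav1* has mice 2 and 3 at 1.16 and 1.12, *Fcgr4* at 0.62 and 1.14, and *Tyrobp* at 0.01 and 0.55.

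In the edgeR quasi-likelihood fit over all genes, 0 of 14489 genes (0%) were called at an adjusted p under 0.05, and none of the 9 members was. At an unadjusted p under 0.05 all 9 members were higher in Ox1RΔSERT mice, beside 10.2% of all genes tested (1482 of 14489). DESeq2 called 266 genes, and 234 of the 15179 genes with an adjusted p were higher (1.54%) and 32 lower (0.211%); 7 members were among them, all but *Fcgr2b* and *Plcg2*. The groups did not overlap for 4 members (*Fcgr1*, *Fcgr4*, *Fcer1g* and *Vav1*), beside 2.69% of all genes tested that were higher without overlap and 2.81% that were lower. Because the list was selected on this contrast, nothing is read from these counts. Without Ox1RΔSERT mice 1 and 4, 2 members (*Fcgr4* and *Vav1*) were higher at an unadjusted p under 0.05, beside 1.66% of genes in that fit, and DESeq2 called 9 genes, none of them a member. Single mice mattered as well for DESeq2: it called 6, 7, 2 and 1 members without control mouse 1, 2, 3 or 4, beside 373, 243, 49 and 17 genes in all, and 1, 9, 9 and 1 members without Ox1RΔSERT mouse 1, 2, 3 or 4, beside 18, 1513, 931 and 17 genes.

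Levels of different genes were compared on TPM, a scaled transcript abundance that accounts for transcript length. Ratios within a mouse are free of scaling, but on log2(TPM + 0.1) the median gene lay 0.32 higher in Ox1RΔSERT than in control mice, against 0 on normalized CPM, so TPM sums compared between the groups hold that shift. In control mice the order by mean TPM was *Tyrobp* (13.1 ± 3.22, SD, n = 4), *Fcer1g* (8.03 ± 1.66), *Fcgr3* (5.95 ± 1.92), *Fcgr2b* (5.16 ± 2.02), *Syk* (0.814 ± 0.195), *Fcgr4* (0.653 ± 0.188), *Fcgr1* (0.506 ± 0.308), *Vav1* (0.300 ± 0.0705) and *Plcg2* (0.177 ± 0.0669). *Fcgr2b* lay above *Syk* with no overlap of values, and this was the only step between neighbours of which that was true. In Ox1RΔSERT mice the first 4 places were the same, while *Fcgr1* (4.53 ± 4.34, SD, n = 4) came next, before *Fcgr4* (3.49 ± 2.51) and *Syk* (3.45 ± 2.69), and neighbours overlapped throughout. The adaptors were thus the most abundant transcripts of the set, and the sum of both stood at 1.79 ± 0.346 times the sum of the 4 receptors in control mice and at 1.82 ± 0.336 times in Ox1RΔSERT mice (SD, n = 4 each).

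The makeup of the receptors was read in each mouse. The summed TPM of the activating receptors over that of *Fcgr2b* was 1.21, 1.57, 1.62 and 1.24 in control mice and 2.19, 1.60, 1.71 and 1.98 in Ox1RΔSERT mice. The groups overlapped at Ox1RΔSERT mouse 2 and control mouse 3. On the log2 scale the means differed by 0.41, with an SD of 0.22 in control and 0.21 in Ox1RΔSERT mice (n = 4 each), and by 0.24 without mice 1 and 4. *Fcgr3* made up 48.7% ± 3.48 of receptor TPM in control mice and 49.9% ± 1.06 in Ox1RΔSERT mice, and *Fcgr2b* 41.7% ± 3.72 and 35.0% ± 3.26 (SD, n = 4). *Fcgr1* took 5.13%, 1.82%, 6.69% and 3.08% in control mice and 12.9%, 4.24%, 4.73% and 9.18% in Ox1RΔSERT mice, so its share was outside the control range only in mice 1 and 4. The share of *Fcgr4* was 4.58% to 6.47% in control mice and 6.78% to 8.02% in Ox1RΔSERT mice.

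**Figure D3:**
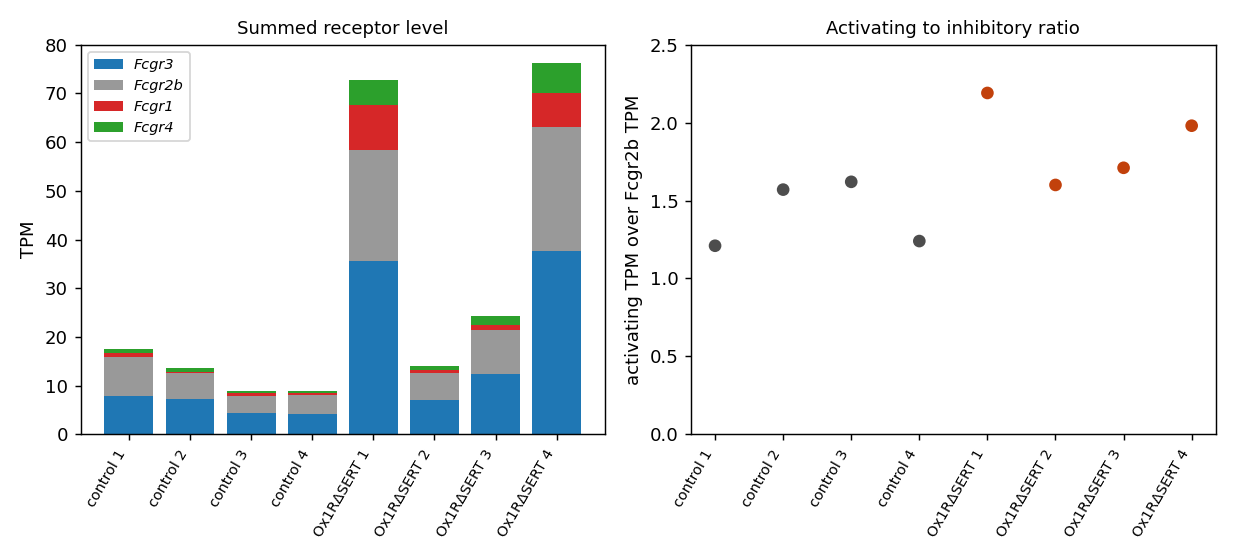
Left, TPM of the 4 receptors stacked for each mouse (bars start at 0); right, summed TPM of *Fcgr1*, *Fcgr3* and *Fcgr4* over TPM of *Fcgr2b* in each mouse, controls in grey and Ox1RΔSERT mice in orange. The summed level was 72.8 and 76.2 TPM in Ox1RΔSERT mice 1 and 4 and 8.87 to 24.2 in the other 6 mice.

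Proportions were also read for pairs of partners. The TPM of *Tyrobp* was 1.65 ± 0.339 times that of *Fcer1g* in control mice and 1.62 ± 0.242 times in Ox1RΔSERT mice (SD, n = 4), and the log2 ratio of *Fcer1g* to *Tyrobp* differed between genotypes by 0.02, less than the SD of 0.27 among controls. It was 0.17 without mice 1 and 4, and it turned to -0.11 without control mouse 2 and -0.09 without Ox1RΔSERT mouse 2. The TPM of *Vav1* over that of *Syk* was 0.417, 0.280, 0.520 and 0.300 in control mice and 0.534, 0.746, 0.487 and 0.359 in Ox1RΔSERT mice, with a mean of 0.379 ± 0.112 and 0.531 ± 0.161 (SD, n = 4), and the highest value in Ox1RΔSERT mouse 2. *Plcg2* over *Syk* was 0.328, 0.191, 0.210 and 0.143 in control mice and 0.186, 0.228, 0.173 and 0.183 in Ox1RΔSERT mice.

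Markers of macrophages, the main cells in which these genes are known, moved with the members. Of 14 macrophage markers 13 were tested, and 10 of them were higher at an unadjusted p under 0.05 and 0 lower, with a median log2 fold change of 1.18 against 0 over all genes tested. Over all genes tested 10.2% were higher and 4.96% lower at that p, which stands beside the counts of this and every list below. Their summed TPM was 167, 213, 144 and 113 in control mice and 721, 154, 223 and 991 in Ox1RΔSERT mice. *Lyz2*, the lysozyme of myeloid cells, was the most abundant, none of the 14 was at 0 in all mice, and *Cx3cr1*, named as the marker left out, had 1 to 14 counts and did not pass the filter. *Mrc1*, *Cd14* and *Itgam* were called by DESeq2, with log2 fold changes of 1.43, 1.65 and 1.75, while *Cd163* and *Mertk*, picked out after their values were seen, had -0.37 and 0.30. Without Ox1RΔSERT mice 1 and 4 the median of the list was 0.07, and without mouse 4 alone 0.76.

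Measured against these markers the members were higher in Ox1RΔSERT mice. The mean log2(TPM + 0.1) of the 9 members minus that of the macrophage markers was -1.32, -1.78, -1.55 and -1.56 in control mice and -0.67, -1.2, -1.18 and -0.85 in Ox1RΔSERT mice. The groups did not overlap, the means differed by 0.58, and the difference was 0.36 without mice 1 and 4. It depended on the constant added before the logarithm, being 0.22 with 1 in place of 0.1. This is a score over chosen genes and was given no test, and the part of macrophage number in the members' values was not tested.

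Monocyte markers had a median log2 fold change of 1.57, and of 0.20 without Ox1RΔSERT mice 1 and 4, with 4 of 6 tested genes higher at an unadjusted p under 0.05. Their summed TPM was 11.9, 9.52, 9.06 and 7.94 in control mice and 45.4, 10.1, 14.3 and 69.2 in Ox1RΔSERT mice, *Plac8* being the most abundant. Neutrophil markers, led by *S100a9*, summed to 7.41 to 43.8 TPM in control mice and 20.4 to 93.2 in Ox1RΔSERT mice, and 2 of 6 tested were higher; their median was 1.00, and 0.49 without the 2 mice and 0.51 without mouse 1 alone. Dendritic cell markers, led by *Zbtb46*, summed to 2.39 to 2.68 and 3.11 to 7.54 TPM, with 2 of 6 higher and a median of 0.83, and of 0.47 without the 2 mice, 1.3 without control mouse 3, 0.33 with at least 10 counts in every mouse and 0.22 on log2(TPM + 1). DESeq2 called *Itgax* (log2 fold change 2.18, and 0.74 without them) and *Ccr7*, which did not pass the edgeR filter and had 2, 3, 3 and 2 counts in control mice and 41, 7, 10 and 90 in Ox1RΔSERT mice. B cell markers summed to at most 0.389 TPM in any mouse with 1 of 6 genes tested, T cell markers to at most 1.47 with 1 of 7 tested, and NK cell markers to at most 1.72 with 0 of 6 tested, and their most abundant genes were *Ms4a1*, *Cd4* and *Nkg7*, the last not tested.

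Mast cell markers, led by *Mcpt4*, summed to 9.74 to 16.3 TPM in control mice and 10.5 to 37.5 in Ox1RΔSERT mice, with 1 of 7 tested higher and a median log2 fold change of 0.38, and of -0.15 without Ox1RΔSERT mice 1 and 4, 0 without mouse 4 alone and 0.22 without control mouse 4. Platelet markers, led by *Pf4*, which macrophages express as well, summed to 13.6 to 18.1 and 12.3 to 106 TPM, with 1 of 3 higher and a median of 0.58, and of -0.28 without the 2 mice and 0.30 and 0.32 without mouse 1 or 4 alone. Endothelial markers, led by *Cldn5*, summed to 44.5 to 65.3 and 67.5 to 114 TPM. This sum held the shift of TPM named above, and only *Cldn5* of the 6 was higher at an unadjusted p under 0.05 (log2 fold change 1.10, and 1.21 without the 2 mice), while the median was -0.12, and 0.03 without them, 0.02 without mouse 4 alone, -0.02 without control mouse 2 and -0.23 without Ox1RΔSERT mouse 2. Skeletal muscle genes, led by *Acta1*, were at 608 TPM in control mouse 2, 1190 in Ox1RΔSERT mouse 1 and 120 in Ox1RΔSERT mouse 4. In the other 5 mice they were at 1.33 to 19.3, so muscle was present in libraries of both genotypes. Their median was 0.54, and -3.75 without Ox1RΔSERT mice 1 and 4 and 3.84 with limma voom. Without control mouse 1, 2, 3 or 4 this median was 0.13, 6.88, 0.12 and 0.12. Without Ox1RΔSERT mouse 1, 2, 3 or 4 it was -2.31, 0.92, 0.95 and 0.85. Brown adipocyte markers, led by *Fabp4*, summed to 11000 to 12100 TPM in control and 10300 to 13100 in Ox1RΔSERT mice, with 0 of 10 higher and 2 lower and a median of -0.13, and of 0.03 without the 2 mice and -0.29 to -0.04 without any single mouse. The 2 lower ones were *Ucp1* and *Dio2*, with log2 fold changes of -0.54 and -1.22, and of -0.34 and -0.87 without the 2 mice. The part of these cell types in the results was not tested.

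**Figure D4:**
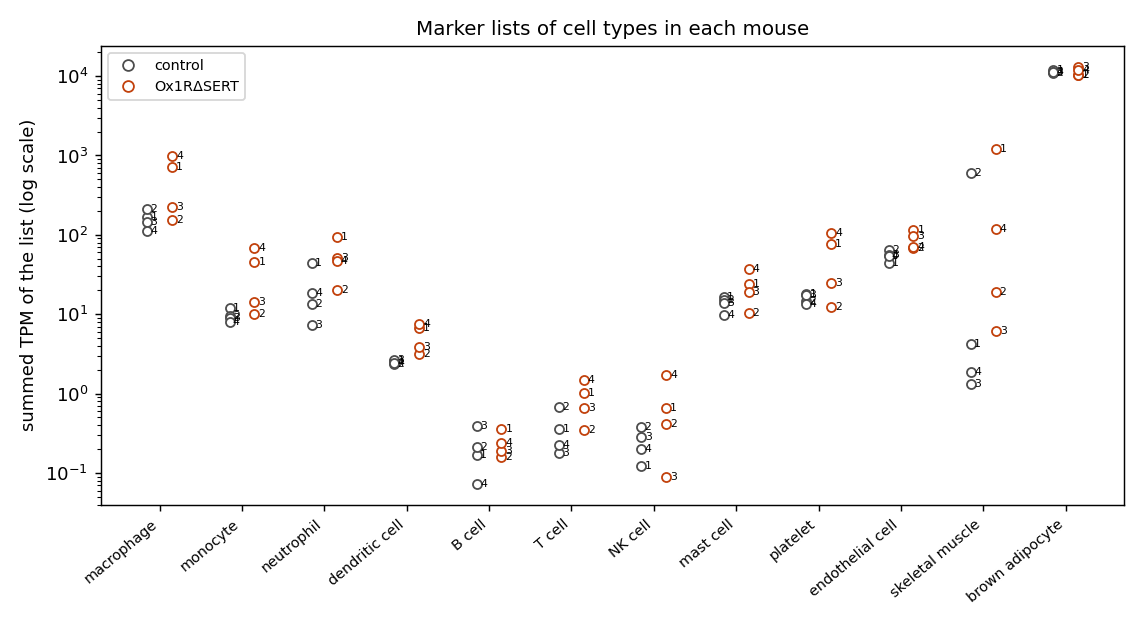
Summed TPM of each list of cell type markers (vertical axis, log scale) in each mouse, numbered, with controls in grey and Ox1RΔSERT mice in orange. Macrophage, monocyte, dendritic cell, mast cell, platelet, T cell and NK cell lists are highest in Ox1RΔSERT mice 1 and 4. Neutrophil and B cell lists are not. The skeletal muscle list is highest in Ox1RΔSERT mouse 1 and control mouse 2.

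The other genes of the pathway were listed by role, 150 genes of which 146 were in the table and 109 were tested. Of these, 50 (45.9%) were higher at an unadjusted p under 0.05, beside 10.2% of all genes, and 1 (0.917%) was lower, beside 4.96%; their median log2 fold change was 0.88. No gene was called by edgeR, and DESeq2 called 12 higher and 0 lower, beside 1.54% and 0.211% of all genes with an adjusted p. The groups did not overlap for 9 genes, all higher, beside 2.69% of all genes tested that were higher without overlap and 2.81% that were lower. As the lists were drawn up with results of these data known, these counts describe them only. The count of 50 became 27 without control mouse 4, 22 without Ox1RΔSERT mouse 1, 21 without Ox1RΔSERT mouse 4, and 3 without both of the latter.

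Differences between the lists and between the genes in them were not tested. Of the Src-family and Tec kinases 7 of 9 tested were higher, with a median of 1.00, and of 0.25 without Ox1RΔSERT mice 1 and 4 and 0.66 without mouse 4 alone. *Btk*, a Tec kinase of B and myeloid cells, was at 0.837, 0.919, 0.778 and 0.903 normalized CPM in control mice and at 4.73, 1.2, 1.06 and 4.0 in Ox1RΔSERT mice, with no overlap and a log2 fold change of 1.68 (standard error 0.50), and of 0.40 without mice 1 and 4. *Lyn* had 0.63, *Fyn* 0.56, *Csk*, which restrains the family, 0.35, and the ubiquitous *Yes1* 0.05. *Src*, picked out after its value was seen, had 1.0 at an unadjusted p of 0.021. Of the phosphatases and brakes 5 of 11 were higher and 1 lower (median 0.93, and 0.07 without both mice and 0.59 without mouse 1 alone). *Ptpn6*, which encodes SHP-1 of blood cells, had a log2 fold change of 1.77 (standard error 0.49) and *Ubash3b*, a suppressor of Syk, 1.68 (standard error 0.50), and the widely expressed *Ptpn11* and *Inppl1* had -0.26 and -0.01. *Inpp5d* and *Dok3*, also of blood cells and picked out after their values were seen, had 0.93 and 0.85, at an unadjusted p of 0.0816 and 0.0658.

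Of the scaffolds and PI3-kinase subunits 6 of 16 were higher (median 0.91, and 0.19 without Ox1RΔSERT mice 1 and 4). The leukocyte genes *Pik3cd*, *Pik3r5* and *Lat2* had log2 fold changes of 1.35, 1.92 and 1.91 (standard errors 0.38, 0.58 and 0.62), *Pik3cg*, picked out later like *Dok3*, had 0.94 at an unadjusted p of 0.058, and the general subunit *Pik3r1* and the adaptor *Grb2* had 0.03 and 0.18. *Pik3r6*, a further subunit picked out after its value was seen, had 0.4 at an unadjusted p of 0.117. In the phospholipase, PKC and CARD9 branch 2 of 12 were higher (median 0.08, and 0.05 without both mice). These were *Prkcb* and *Card9*, with 0.96 and 1.4, and 0.34 and 0.69 without both mice. The relative of *Plcg2* used by most tissues, *Plcg1*, had -0.03 (standard error 0.11). *Vav2* and *Vav3*, chosen here after their values were seen as the relatives of *Vav1*, had 0.32 and 0.69 (standard errors 0.27 and 0.31). Of the actin and phagocytosis genes 9 of 23 were higher (median 0.33, and 0.08 without both mice), and the most abundant, *Gsn*, *Cfl1*, *Cdc42* and *Rac1*, had 0.54, 0.33, 0.12 and 0.11. All 5 subunits of the NADPH oxidase, which makes superoxide in phagocytes, were higher, from 1.37 for *Cyba* to 2.06 for *Cybb*, with a median of 1.67, and of 0.18 without both mice. *Cybb* was at 3.45, 4.91, 2.98 and 1.63 normalized CPM in control mice and 20.6, 5.37, 3.52 and 24.4 in Ox1RΔSERT mice, so mouse 3 was within the control range, and its log2 fold change was 0.47 without mice 1 and 4.

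Other receptors use the same adaptors. Of those paired with Tyrobp 5 of 7 tested were higher at an unadjusted p under 0.05, with a median log2 fold change of 1.85, and of 0.25 without Ox1RΔSERT mice 1 and 4. *Trem2*, a lipid receptor of macrophages, was at 0.811, 2.0, 1.30 and 0.745 normalized CPM in control mice and at 14.3, 1.53, 2.54 and 16.1 in Ox1RΔSERT mice, and its log2 fold change was 2.83 (standard error 0.77), and 0.76 without both mice. Of those paired with Fcer1g 4 of 6 were higher (median 1.54, and 0.40 without both mice), among them the C-type lectins *Clec4d*, *Clec4e* and *Clec4n* with 1.81, 1.66 and 1.43, each without overlap between the groups, while *Oscar*, picked out after its value was seen, had -0.49. Of receptors with an inhibitory motif 6 of 12 were higher (median 1.25, and 0.24 without both mice). *Pirb* had 1.53 (standard error 0.43), again without overlap, and *Pecam1*, mostly endothelial, 0.06.

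Of receptors of antibody outside the Fc gamma family 1 of 5 tested genes was higher, and the median was 0.62, and -0.02 without Ox1RΔSERT mice 1 and 4 and 0.05 and 0.39 without mouse 1 or 4 alone. This gene was *Fcer1a*, with a log2 fold change of 1.29 without overlap, while *Pigr*, picked out after its value was seen, had 2.75 at an unadjusted p of 0.0704, and -1.02 without both mice, with 453 counts in Ox1RΔSERT mouse 1 and 3 to 39 in the other mice. *Fcgrt*, the neonatal Fc receptor that recycles immunoglobulin G, was at 151, 158, 117 and 128 normalized CPM in control mice and at 101, 122, 149 and 108 in Ox1RΔSERT mice. With overlapping groups, its log2 fold change was -0.21 (standard error 0.15), and -0.02 without mice 1 and 4. Of 13 immunoglobulin genes 3 were tested, 0 were higher or lower, their median was -0.45, and -0.62 without both mice and -0.07 without control mouse 3, and their summed TPM was 3.28 to 5.98 in control and 4.6 to 12.6 in Ox1RΔSERT mice, most of it from *Ighm*. Of the genes of immunoglobulin G, chosen here as the ligand, *Ighg1* and *Ighg2c* had at most 1 count in any mouse, *Ighg3* had 7 in Ox1RΔSERT mouse 1 and at most 1 in the others, and *Ighg2b* had 0, 14, 25 and 3 in control mice and 0, 1, 1 and 0 in Ox1RΔSERT mice. *Ighe* had none, and antibody protein reaches tissue from the blood and was not measured.

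**Figure D5:**
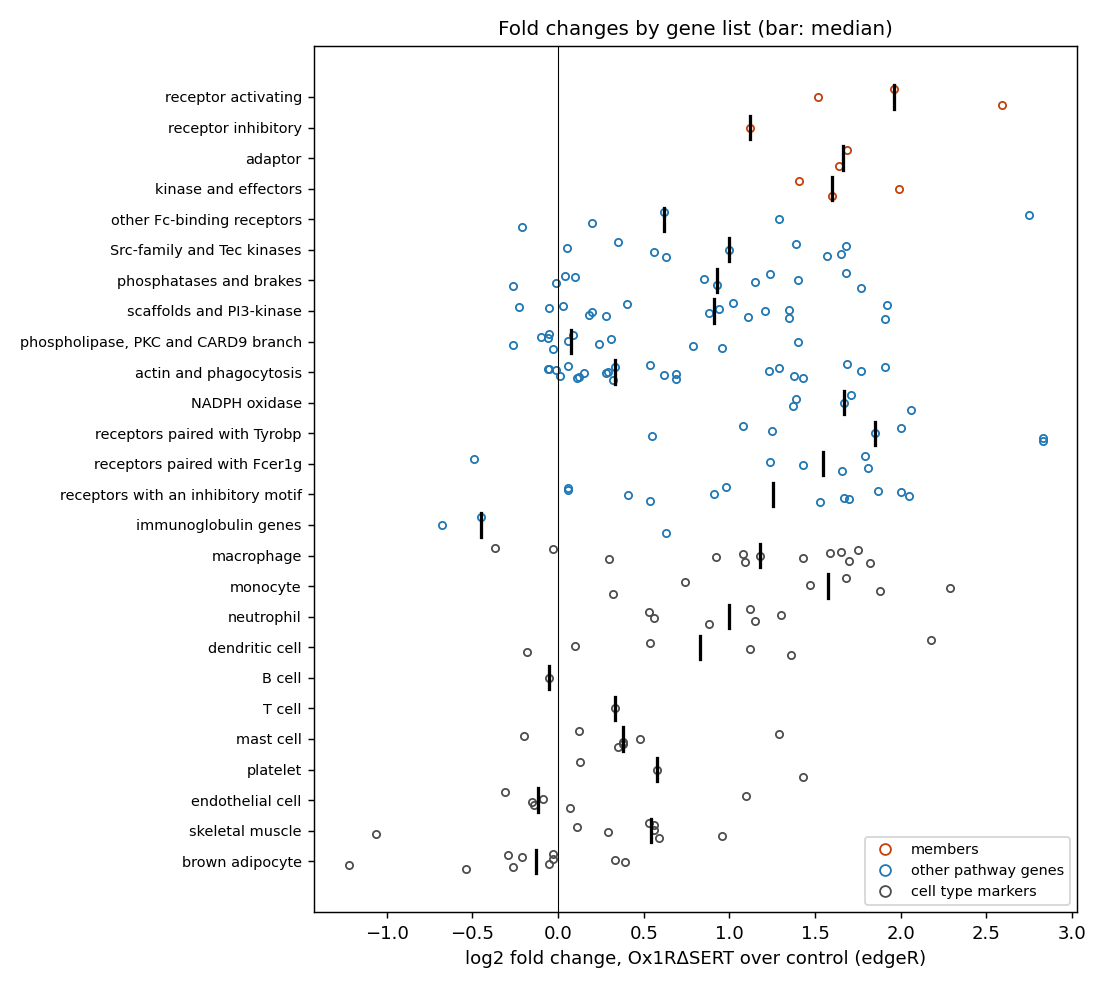
Log2 fold change of Ox1RΔSERT over control mice (horizontal axis) for each tested gene of each list; circles are genes, black bars the list's median, and the vertical line marks 0. Members lie between 1.12 and 2.59, the NADPH oxidase genes between 1.37 and 2.06, and the brown adipocyte markers have a median of -0.13.

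The tested genes whose pattern over the 8 mice lay nearest to the mean pattern of the members were *Abi3bp*, *Lcp1*, *Ncf4*, *Rab3il1*, *Lrrc25*, *Nuf2*, *Ptprc*, *Pirb*, *Slc11a1* and *Cd37*. Likeness was the root mean square difference of centred log2 values, which was 0.11 for *Abi3bp* and 0.15 for *Cd37*, with a median of 1.02 over all genes tested. Among the members themselves *Fcer1g* was nearest to the mean pattern at 0.11 and *Fcgr1* farthest at 0.56, and the closest pair was *Tyrobp* and *Syk*, 0.14 apart.

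*Fcgr2b*, *Fcgr4*, *Fcgr3* and *Fcer1g* lie within 275.7 kb of chromosome 1, from 170958617 to 171234365 of GRCm38, among 17 annotated genes. Of the 13 others 6 were tested, with a median log2 fold change of -0.18. *Sdhc*, a subunit of succinate dehydrogenase, had -0.20 and *Tomm40l* -0.17, while *Apoa2*, next to *Fcer1g*, had 2.78 and lay above the controls in 2 Ox1RΔSERT mice. These neighbours were described because of their place, not by the rule for named genes. The other members lie on chromosomes 3 (*Fcgr1*), 7 (*Tyrobp*), 13 (*Syk*), 17 (*Vav1*) and 8 (*Plcg2*).

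Promoters were read because the members moved together. RefSeq windows of the 250 bases before a gene's start (GRCm38.p6) were found for 8 of the 9 members, all but *Tyrobp*. Searched on both strands, GAGGAA, the core of sites for the myeloid factor PU.1, was in at least 1 window of 5 of the 8 members (*Fcgr1*, *Fcgr3*, *Fcgr4*, *Syk* and *Vav1*) and of 25.9% of all 27025 genes with a window; by window it was in 6 of the members' 10 and in 23.3% of all 32851, *Fcgr3* and *Syk* having 2 windows each. The 2 windows of *Fcgr3* overlap and hold the same GAGGAA site, which the count by window includes for each of them. The shares below are by gene. The longer GAGGAAG, which contains it, was in 4 and in 12%, and GAGGAAGT, which contains both, in 2 (*Fcgr4* and *Vav1*) and in 2.79%. TTCNNNGAA, the form of STAT sites, was in 1 (*Fcgr1*) and in 8.13%, TGACTCA, the AP-1 site, in 0 and in 5.16%, and TATAAA in 0 and in 14.3%. The windows of the 3 members below carry these letters in capitals, GAGGAA or its complement TTCCTC, and in *Fcgr1* also TTCCCAGAA. They lie at chr3:96293970-96294219 on the minus strand, chr1:171018676-171018925 on the plus strand and chr17:57278850-57279099 on the plus strand, and are shown because these members carried GAGGAA and did not overlap between the groups; the window of *Fcer1g*, which did not overlap either, had no GAGGAA and is not shown:
Fcgr1: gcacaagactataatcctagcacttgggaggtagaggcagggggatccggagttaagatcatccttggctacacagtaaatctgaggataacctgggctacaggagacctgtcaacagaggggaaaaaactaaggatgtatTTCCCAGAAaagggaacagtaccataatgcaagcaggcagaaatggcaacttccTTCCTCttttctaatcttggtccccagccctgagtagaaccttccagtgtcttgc
Fcgr4: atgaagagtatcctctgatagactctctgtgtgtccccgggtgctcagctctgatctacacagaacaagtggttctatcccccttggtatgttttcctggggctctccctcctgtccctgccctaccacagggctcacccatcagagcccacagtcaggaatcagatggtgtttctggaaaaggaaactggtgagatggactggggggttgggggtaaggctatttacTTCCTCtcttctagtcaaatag
Vav1: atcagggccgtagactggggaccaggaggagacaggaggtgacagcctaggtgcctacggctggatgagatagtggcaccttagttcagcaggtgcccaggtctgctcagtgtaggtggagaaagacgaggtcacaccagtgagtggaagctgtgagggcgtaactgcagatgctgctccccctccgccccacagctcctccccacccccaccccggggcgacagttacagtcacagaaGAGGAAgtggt

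In *Fcgr4* and *Vav1* the motif lay 22 to 17 and 11 to 6 bases before the start, and in *Fcgr1* 55 to 50 bases before it, with the STAT form at 109 to 101. A match of letters is a description and shows no binding.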

How the data were processed

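BAT of 4 control and 4 Ox1RΔSERT mice was sequenced by the authors from poly-A selected, stranded libraries. The deposited gene tables hold estimated counts and TPM that the authors made with Salmon 0.14.1 against GRCm38; the submitters' processing notes also name STAR, DESeq2 1.26.0 and GRCm38.p6, and whether strand was used in counting is not given in the sources used here. The members and lists were chosen with earlier results of these data known. Symbols were matched for 44118 of 44674 identifiers (98.8%), and 4 listed genes were not found by name. Estimated counts were rounded and tested with edgeR 4.0.16 (filterByExpr, TMM, quasi-likelihood, two-sided, Benjamini-Hochberg, threshold 0.05) in R 4.3.3. Normalized CPM are these counts divided by the TMM-scaled library size. Standard errors given with edgeR fold changes are the absolute log2 fold change divided by the square root of the quasi-likelihood F statistic. They therefore hold no information beyond the fold change and its test. DESeq2 1.42.0 was run on the same counts, without genes that had no counts and with the default independent filtering of the tool. This default was adopted after a run with filtering aimed at 0.05 had been seen to give 275 calls, and with a count of 265 from an earlier analysis of these data known, and that run and one with all genes kept, the only 2 alternatives added after seeing the data, are given with the planned ones. limma 3.58.1 served other alternatives. The edgeR and DESeq2 steps were also run on simulated data, but the outcome is not given here and nothing is read from it. The rule for named genes took the members, *Hcrtr1*, *Ucp1* and the 10 genes nearest in pattern. From each list it took the 4 tested genes with the highest mean TPM. It also took up to 4 DESeq2 calls of a list, those with the lowest p. *Slc6a4* was named outside this rule, and so was *Nkg7*, the most abundant gene of a list with no gene tested. Not every such gene is named above. Left out were, for example, *Ccr2*, a DESeq2 call (log2 fold change 1.88), and *Stim1*, the most abundant of its list (-0.05). Others are named for the reason given beside them. Floors of 3 counts cover counting error only. Values of 1 listed gene are not reported here.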

Additional observations from a re-analysis of the deposited data

Results flagged for a closer look

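In 34 groups of 4 mice examined for a value far from the rest, 2 were found, and chance gives about 1 in 20. Among control mice, *Syk* was at 8.66 normalized CPM in mouse 2 and at 4.83 to 5.23 in the other 3, a gap of 0.896 of the whole range. In the same mouse the TPM of *Tyrobp* was 2.15 times that of *Fcer1g*, against 1.43 to 1.55 in the other controls, a gap of 0.833 of the range. Control mouse 2 also held 608 TPM of skeletal muscle markers, and the part of that in both values was not tested.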

How the results depend on the processing

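All 153 fold changes of the members under the alternatives kept their direction; 7 of them, all with DESeq2, passed the threshold that edgeR did not reach. Genes called were 0 in every edgeR and limma setting and 266 with DESeq2. DESeq2 called 275 genes with independent filtering aimed at 0.05, 265 with genes without counts kept and 257 with TMM factors, and 7 members each time. Leaving out 1 mouse gave 17 to 1513 genes and 1 to 9 members called by DESeq2, and 21 to 67 pathway genes higher at an unadjusted p under 0.05. At that p 7 to 9 members were higher. *Fcgr2b* and *Plcg2* were lost without control mouse 3 or 4 or Ox1RΔSERT mouse 1 or 4. Without Ox1RΔSERT mice 1 and 4, DESeq2 called 9 genes and 0 members, and 2 members and 3 pathway genes were higher at an unadjusted p under 0.05; fewer samples entered these fits, and the cause was not tested further. With a constant of 1 the members relative to macrophage markers differed by 0.22. Both receptor and adaptor ratios moved by less than 1 SD. Of 340 list medians 308 moved by less than the spread and 324 kept their sign. The immunoglobulin median became 0.20 without a filter and with DESeq2, 0.64 with at least 10 counts in every mouse and 0.04 on log2(TPM + 0.1), where different genes entered or the scale differed. On log2(TPM + 1) and log2(TPM + 0.1) the endothelial median was 0.17 and 0.20 and that of brown adipocytes 0.13 and 0.16, beside a median of all genes of 0.23 and 0.32. On these scales the median of the phospholipase, PKC and CARD9 branch was 0.29 and 0.4. That of the actin and phagocytosis genes was 0.58 and 0.7. On log2(TPM + 1) the medians were 0.77 and 0.74 for receptors paired with Tyrobp and Fcer1g, 0.62 for those with an inhibitory motif, 0.97 for monocytes, and 0.57, 0.59 and 0.56 for the kinases, phosphatases and scaffolds. Without Ox1RΔSERT mice 1 and 4 the medians were -0.02 for other Fc-binding receptors, -0.15 for mast cells, -0.28 for platelets and -3.75 for skeletal muscle. Standard errors of the members ran from 0.40 (*Vav1*, 37 to 363 counts) to 0.71 (*Fcgr1*).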
